A study of Drosophila melanogaster with 4 samples.

Results

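The histone variant genes of Drosophila melanogaster examined here were chosen by name. No measured value enters the rule, but the choice was made with earlier results of these data known. They were 5 of the 18164 genes annotated on 6 chromosome arms of the dm6 genome (transposable elements left out). His2Av lies on 3R from 26866929 to 26869220 and His4r on 3R from 14625755 to 14626614, both on the forward strand. His3.3A lies on 2L from 5055058 to 5056149 on the forward strand. His3.3B lies on X from 9152523 to 9156669 on the reverse strand. cid lies on 2R from 13485617 to 13486631 on the forward strand. They were set against the replication-dependent histone genes, 111 annotated copies in a tandem array on 2L. Peaks of the CG8924 protein lay within 500 bp of a start site of 4 of the 5 variant genes, beside 31.4% of all protein-coding genes. cid had a weaker peak below the threshold, and no peak of any list lay in or within 1 kb of a replication-dependent gene.

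Histones wrap DNA into nucleosomes. The replication-dependent histones are made in S phase from many repeated gene copies, while variants are made throughout the cell cycle from solitary genes and are put into chromatin outside replication. His2Av encodes the fly's H2A variant, which does the work of both H2A.Z and H2A.X. His3.3A and His3.3B encode the same H3.3 protein, His4r is a replacement gene for histone H4 outside the array, and cid encodes the H3 variant of centromeres. The study mapped the binding of CG8924 by chromatin immunoprecipitation and sequencing in whole embryos of both sexes, 0 to 24 h old. All embryos came from a transgenic line whose CG8924 carries GFP at its C terminus, and the pull-down used an antibody against GFP. The samples form 1 group of 4 biological replicates with no second condition, so no test between groups exists, and whole embryos mix all cell types and stages of that day. There are 30000 peaks in the list of every replicate and in the pooled one. A thresholded list, cut by reproducibility, holds the top 7842 of the pooled peaks by signal. Only replicates 2, 3 and 4 went into the pooled peaks and their thresholded subset, so replicate 1 played no part in either. Read depth is unknown from these lists. Signal is the value the authors gave each peak, comparable only within a list, and rank orders the peaks of a list by it, with 1 the highest.

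The sequences at the thresholded summits of the variant genes are those around the pooled call. Summits of single replicates did not all fall in them. At the intronic His3.3B summit the best summits of replicates 2, 3 and 4, at 9155901, 9155901 and 9155882, lay outside. At His2Av every replicate's best summit lay inside, and at the other summits some did and some did not. Each stretch runs 50 bases to either side of the summit in the dm6 reference, 5′ to 3′ on the strand of the named gene, and capitals mark matches to any of 8 motifs that were searched on both strands. The motifs were GAGAG (the GAGA factor word), TATCGATA (the DNA replication-related element), TATAAA (the TATA box), the E-box words CACGTG and CAGCTG, the repeat ACACACAC, GGTCACAC (the core of the promoter element Motif 1) and CAGGTAG (the word of the early factor Zelda). The stretches lie, in the order shown, at chr3R:26866694-26866794 (forward), chr2L:5055107-5055207 (forward), chrX:9155959-9156059 (reverse), chrX:9152261-9152361 (reverse) and chr3R:14625768-14625868 (forward).
His2Av: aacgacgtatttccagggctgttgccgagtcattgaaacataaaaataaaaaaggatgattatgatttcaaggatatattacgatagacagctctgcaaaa
His3.3A: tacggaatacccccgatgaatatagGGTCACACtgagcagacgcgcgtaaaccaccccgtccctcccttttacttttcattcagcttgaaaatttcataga
His3.3B intron: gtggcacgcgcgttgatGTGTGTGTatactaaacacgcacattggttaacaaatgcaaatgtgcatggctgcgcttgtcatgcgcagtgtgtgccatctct
His3.3B past the end: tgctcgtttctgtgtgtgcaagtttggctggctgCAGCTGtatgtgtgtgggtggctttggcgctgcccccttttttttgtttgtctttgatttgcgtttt
His4r: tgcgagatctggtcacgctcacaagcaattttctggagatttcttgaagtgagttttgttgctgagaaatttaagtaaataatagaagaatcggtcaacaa

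The variant summits shared no motif of this set. The His3.3A summit held GGTCACAC, found at 1.67% of the 7842 thresholded summits in windows of the same width. The intronic His3.3B summit held ACACACAC, found at 2.55% of summits, and the summit past its end held CAGCTG, found at 4.08%. The window past the end also holds tgtgtgtg, the same repeat in its other phase. The search did not count that word, so no share of summits is given for it. The His2Av and His4r windows held none of the 8. GAGAG, found at 11.3% of summits, was in none of these windows, nor were TATAAA (22.8%), TATCGATA (2.03%), CACGTG (0.816%) and CAGGTAG (0.472%). These matches describe letters only, and no match says only that the letters are not in the window. Base composition differed among the members. The GC content of the window was 49.5% at the intronic His3.3B summit, 48.5% at the other His3.3B summit and 46.5% at His3.3A, against a median of 32.7% over all thresholded summits. It was 36.6% at His4r and 34.7% at His2Av, both near that median.

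Of the 5 variant genes, 4 had a thresholded summit within 1 kb of the gene. The same held for 36.6% of all genes and for 41.4% of the 13945 protein-coding genes. Long genes have wider windows, and among the 9867 protein-coding genes no longer than His3.3B (4147 bp) the share was 33.5%. With 5 genes, no more than the counts can be read from this. Within 500 bp of an annotated transcription start site (TSS) the count was again 4 of 5, against 31.4% of protein-coding genes. In the full pooled list all 5 had a summit within 1 kb, against 60.4% of protein-coding genes.

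**Figure D1:**
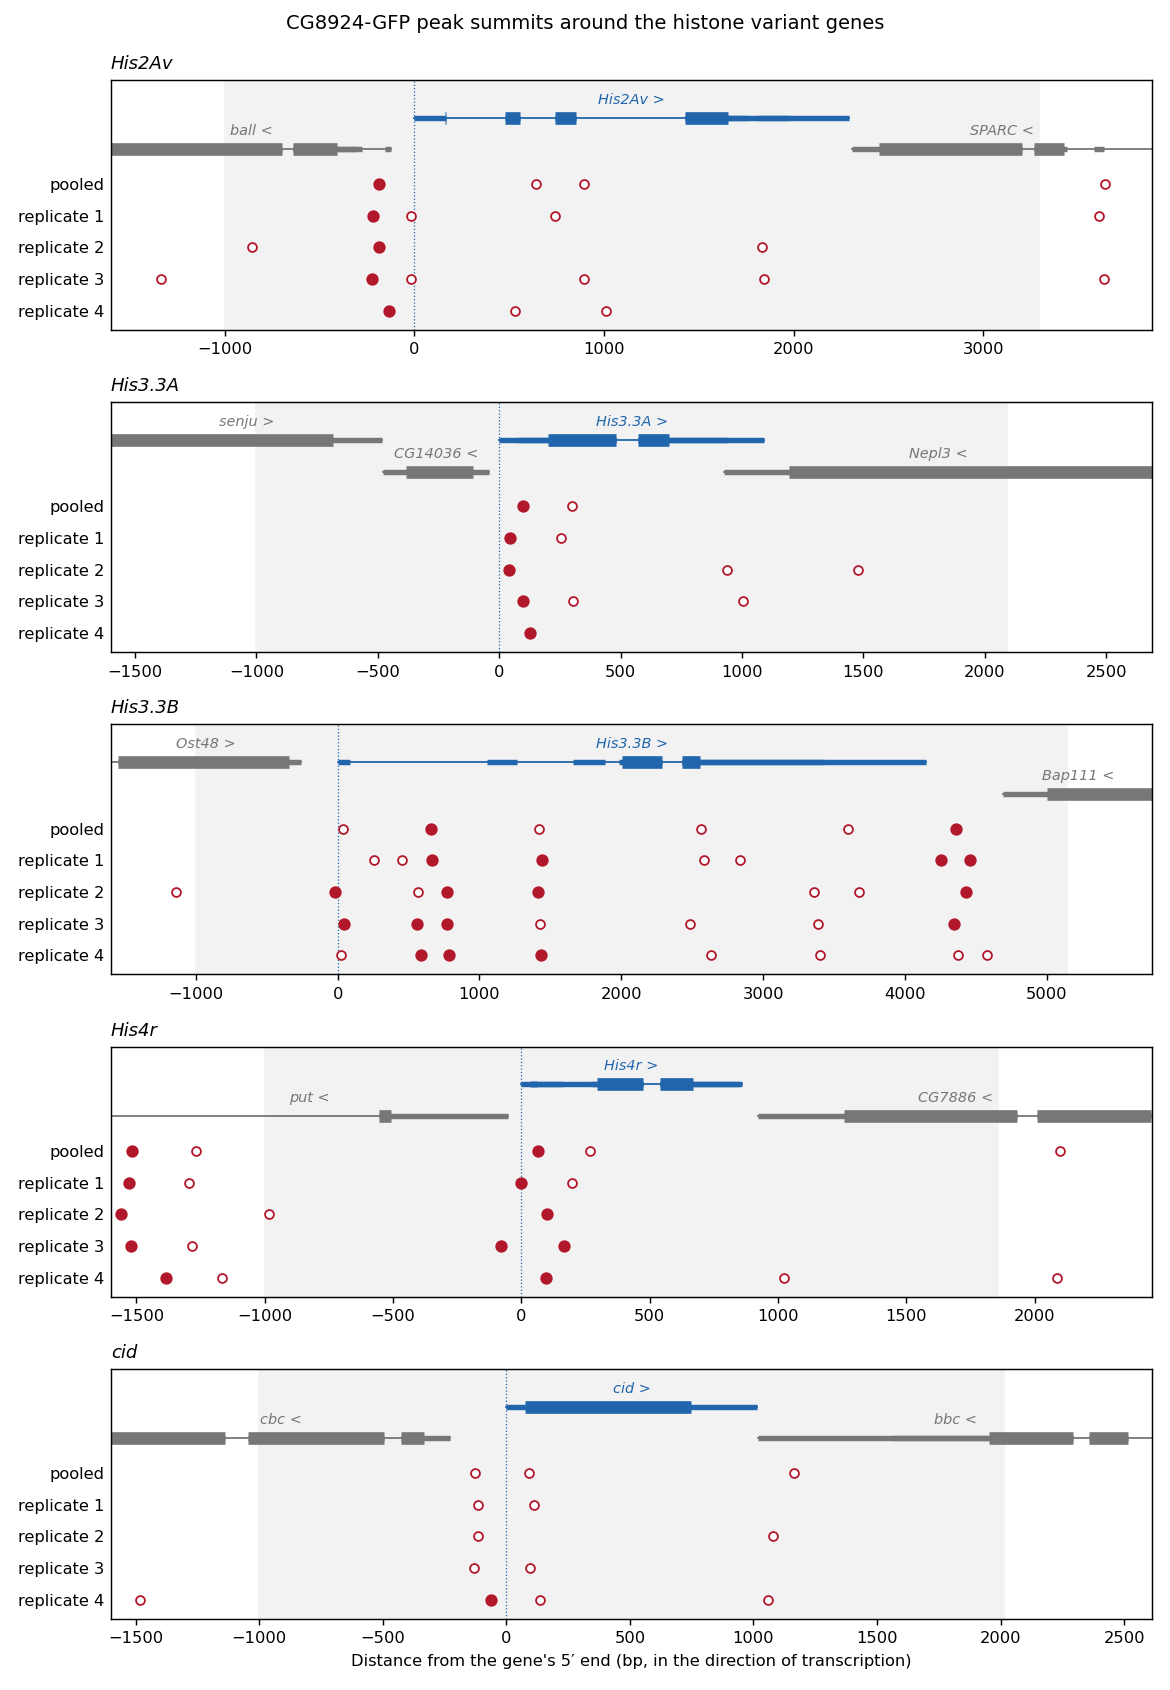
Summits around the 5 histone variant genes, by distance in bp from each gene's 5′ end in its direction of transcription, in the pooled list and in each of the 4 replicates. Filled points rank 7842 or better in their own list, open points rank lower, gene models are drawn with coding parts thickest (the variant gene in blue, neighbours in grey, > and < giving strand relative to it), and grey shading spans 1 kb either side of the gene. The strongest summits sit close to the 5′ end of His2Av, His3.3A and His4r, His3.3B has several along its length, and cid has a filled point in replicate 4 only.

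The H2A variant gene His2Av had 1 thresholded peak, on 3R from 26866589 to 26866962 with its summit at 26866744, signal 653 and rank 2760. This summit lies 185 bp upstream of the gene's 5′ end. It is nearer to the neighbouring gene ball, 63 bp inside that gene from its start. ball encodes the nucleosomal histone kinase of the fly, which phosphorylates H2A, and it starts 122 bp from His2Av on the opposite strand. The best summit of the locus ranked 4541, 1880, 3123 and 1909 in replicates 1 to 4. All 4 ranks were among the 7842 highest of their own list, and the 4 summits lay within 89 bp of each other. The pooled list had 2 weaker summits in introns of His2Av, 641 and 894 bp from its 5′ end, at ranks 17935 and 18868.

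Of the H3.3 genes, His3.3A had 1 thresholded peak, which covered 5054917 to 5055396 on 2L. Its summit, at 5055157, had signal 509 and rank 4018. The summit lies in the 5′ UTR, 99 bp into the gene and 23 bp from the nearer of its 2 annotated TSSs. The gene CG14036 starts on the opposite strand 42 bp from His3.3A, and the peak covers both starts. Its ranks were 6903, 4127, 3666 and 2348 in replicates 1 to 4, all among the 7842 highest of their list, with summits within 83 bp. A weaker pooled summit lay in the coding part, 298 bp from the 5′ end, at rank 23232.

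His3.3B, the other H3.3 gene and the longest of the members, had 2 thresholded peaks. The stronger, on X from 9155615 to 9156216 with its summit at 9156009, had signal 671 and rank 2641. It lies in an intron, 660 bp downstream of the gene's 5′ end and 396 bp from the nearest of its 3 annotated TSSs. It ranked 3183, 2385, 1703 and 2054 in replicates 1 to 4, and no replicate placed it outside its 7842 highest. The weaker, with its summit at 9152311, signal 408 and rank 5394, lies 212 bp past the gene's end, in the 546 bp between His3.3B and Bap111. Bap111 encodes a subunit of the Brahma remodelling complex, and the genes meet tail to tail. This summit had matches within 250 bp at ranks 4074, 3750, 7657 and 9417, so replicate 4 placed it outside its 7842 highest.

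A further pair of His3.3B summits in the pooled list fell just below the threshold, at ranks 8000 and 8001, both with signal 290. The summit at 9156629 lies in the 5′ UTR, 40 bp from the gene's 5′ end. Replicates 2, 3 and 4 had matches within 250 bp at ranks 4155, 5280 and 7881. The only replicate 1 summit within 250 bp, at rank 24123, lay in an intron, 253 bp from the 5′ end. Replicate 1 thus had no summit at the 5′ UTR position. The summit at 9155247 lies in an intron, 1422 bp from the 5′ end and 235 bp from a TSS, and ranked 7233, 5716, 12872 and 6326. His3.3B thus had 6 summits within 1 kb in the pooled list, against 3 for His2Av and cid and 2 for His3.3A and His4r. It spans 4147 bp, against 860 to 2292 bp for the other members.

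The H4 replacement gene His4r had 1 thresholded peak within 1 kb, on 3R from 14625725 to 14625897 with its summit at 14625818, signal 475 and rank 4420. The summit lies in the 5′ UTR, 63 bp from the gene's 5′ end. The gene put (punt), a type II receptor of TGF-beta family ligands, starts on the opposite strand 52 bp away. The His4r summit ranked 5030, 3186, 2232 and 5395 in replicates 1 to 4, all among the 7842 highest, with the best summits spread over 179 bp. Another thresholded summit, at 14624236 with rank 4902, lies 1519 bp upstream of His4r, inside put and outside the 1 kb window.

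The centromeric H3 variant gene cid had no thresholded peak. Its best pooled summit, on 2R at 13485489, had signal 275 and rank 8460, while the lowest signal in the thresholded list was 296. The summit lies between cid and the divergent gene cbc (crowded by cid), 128 bp from the start of cid and 98 bp from that of cbc, which encodes an RNA kinase of pre-mRNA 3′ end processing. It ranked 10707, 9485, 11980 and 6540 in replicates 1 to 4, so only replicate 4 placed it among its 7842 highest. The position recurred all the same, with the 4 best summits within 68 bp. Its −log10 q-value was 4.25 in the pooled list, the highest value there and shared by 8808 peaks, and in the replicates it was 4.39, 3.1, 1.82 and 4.14. The window around this summit had a GC content of 23.8%, the lowest of the members, and none of the 8 motifs.

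**Figure D2:**
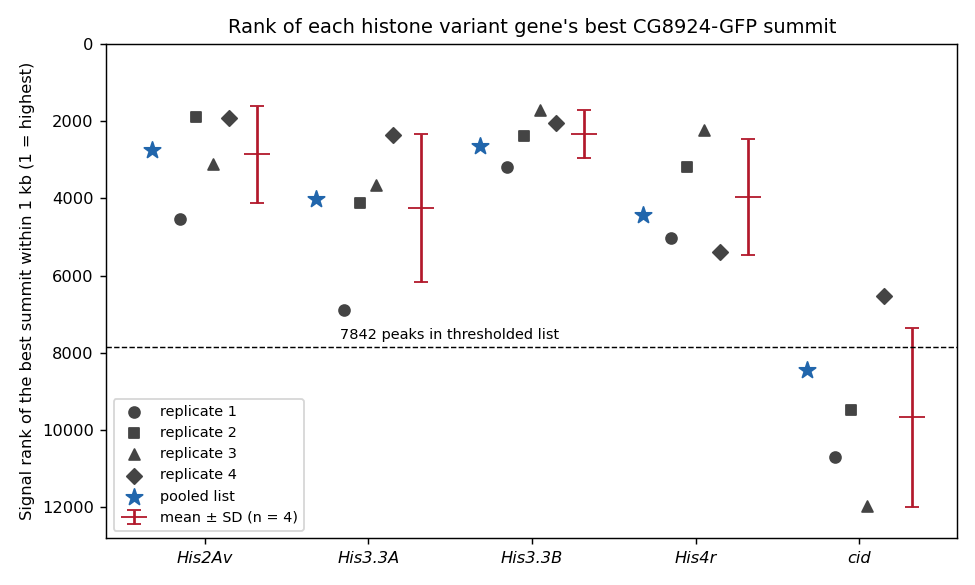
Signal rank of the best summit within 1 kb of each histone variant gene, with rank 1 at the top. Stars show the pooled list, dark symbols the 4 replicates and red bars their mean ± SD (n = 4), and the dashed line marks the 7842 peaks of the thresholded list; only the replicate 4 symbol of cid lies above that line for this gene, and all replicate symbols of the other members do.

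Over the 4 replicates the mean rank of the best summit was 2331 ± 632 (SD, n = 4) for His3.3B. It was 2863 ± 1260 for His2Av, 3961 ± 1504 for His4r, 4261 ± 1916 for His3.3A and 9678 ± 2327 for cid. The first 4 in this order do not differ from their neighbours beyond the spread between replicates, and neighbours changed places from replicate to replicate. Within each of the 4 replicates, however, His3.3B ranked above both His4r and His3.3A, and His2Av ranked above His3.3A. cid ranked lowest of the 5 in each of the 4 replicates, although its rank of 6540 in replicate 4 was better than the 6903 of His3.3A in replicate 1. In its own 7842 highest peaks, replicate 1 had a summit within 1 kb of 4 members, against 41% of protein-coding genes. Replicates 2 and 3 had 4 each, against 40.9% and 40.4%, and replicate 4 had 5, against 40.8%. Replicate 1, the library outside the pooled list, gave the lowest rank of the 4 for His2Av, His3.3A and His3.3B, while replicate 4 gave it for His4r and replicate 3 for cid.

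A trait shared by 4 of the 5 members, and not used to choose them, is a protein-coding neighbour that starts within 1 kb on the opposite strand, head to head with the member. The pairs are His2Av with ball, His3.3A with CG14036, His4r with put and cid with cbc. Of all protein-coding genes 33.3% have such a neighbour. Among those genes 61.9% had a thresholded summit within 1 kb, against 31.2% of genes with no such neighbour. At the head-to-head members the summit lay within 200 bp of both starts in each case, so the peak cannot be assigned to the histone gene rather than to its neighbour. His3.3B has no such neighbour, since Ost48, a subunit of the enzyme that glycosylates proteins in the endoplasmic reticulum, lies 259 bp upstream on the same strand.

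For the 4 members with a thresholded peak (cid was left out), the protein-coding genes whose best-summit ranks were most like theirs were found by the mean absolute difference of log2 rank over the 4 replicates. The 3 nearest to His2Av were vig, CG2924 and sina, at 0.15, 0.18 and 0.18 among 7403 genes compared. Those nearest to His3.3A were otk2, Pdk1 and mRpL2, at 0.06, 0.10 and 0.13. Those nearest to His3.3B were Cox10, CG5281 and CG11403, at 0.11, 0.11 and 0.12. Those nearest to His4r were EloC, CG5569 and Cpes, at 0.14, 0.15 and 0.15, of which CG5569 and Cpes had the same 4 ranks. With so many genes compared over 4 lists, near matches of this size are a description of rank only.

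The replication-dependent histone genes were 23 copies each of His1, His2B and His3, 22 of His4 and 20 of His2A. They run on 2L from 21416953 to 21541681, over 125 kb. None of the 111 copies had a summit within 1 kb in any of the 6 lists, and no peak interval of any list overlapped the array. In the pooled list the last summit before it lay 45.9 kb away, at rank 5807, and the first after it 16.7 kb away, at rank 29308. The summit-free stretch around the array spanned 187 kb in the pooled list, the 25th longest of 29994 distances between neighbouring summits, whose median was 1.33 kb. In the replicates it spanned 187 to 212 kb.

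**Figure D3:**
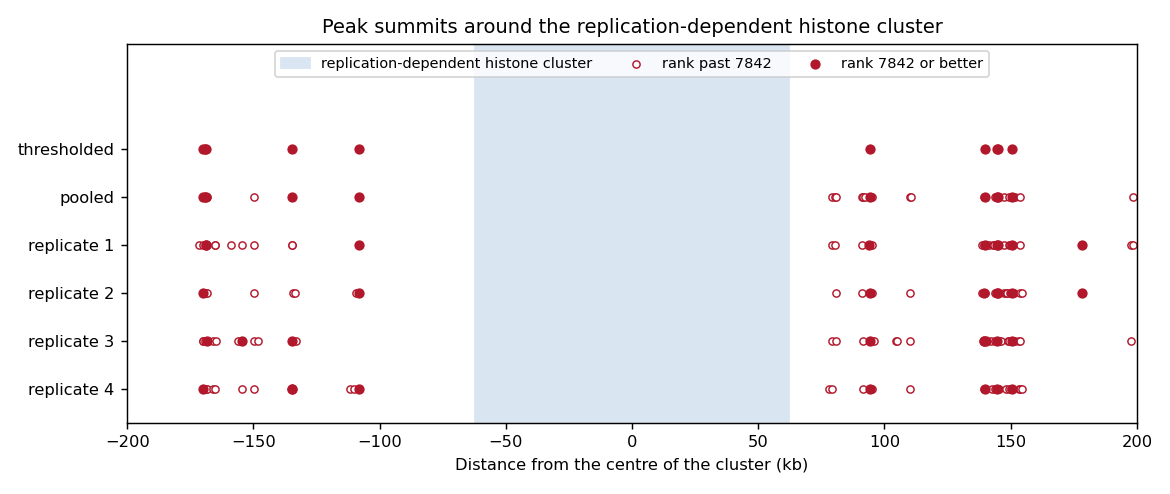
Summits within 200 kb of the centre of the replication-dependent histone cluster, in kb, for each of the 6 lists. Filled points rank 7842 or better in their list, open points lower; the shaded 125 kb of the cluster holds no point in any list, and the empty stretch reaches past it on both sides.

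The reference sequence also differed between the 2 kinds of histone gene. Of all words of 32 bases in the windows of the variant genes, 99.3% to 100% occurred once in the 6 arms (99.9% for His2Av, 99.7% for His3.3A, 99.3% for His3.3B, and 100% for both His4r and cid). In the replication-dependent array 0.979% did, and the median word there occurred 23 times. The share was 72.2% in the 45.9 kb before the array and 37.2% in the 16.7 kb after it. Of the 30000 pooled summits, 17 lay in a window of the motif search's width where under 10% of words occurred once, and at 99.1% of summits all words did. The sources used here do not state how reads that match several places were treated before peaks were called; the deposited notes list a signal track of unique reads. Absence of peaks from the array therefore cannot be told apart from absence of reads placed there, and the part of repetition in it was not tested.

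The array's best known regulatory stretch, the space between head-to-head His3 and His4 copies, shows the repetition directly. Between His3:CG33803 and His4:CG33909 it is 185 bp long, and the part richest in GAGAG lies at chr2L:21419976-21420076 (forward strand, capitals marking GAGAG on either strand). This stretch, from the first of 22 such pairs along the array, occurs 4 times there in exactly these letters. Most of the 22 spaces thus do not hold it letter for letter. It occurs nowhere else on the 6 arms, while each of the 5 stretches shown for the variant genes occurs once.
His3-His4: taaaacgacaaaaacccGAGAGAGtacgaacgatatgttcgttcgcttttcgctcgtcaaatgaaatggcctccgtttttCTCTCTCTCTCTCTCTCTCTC

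The genes that act on histones were described from a list of 40, in 6 groups by function. Of these, 25 (62.5%) had a thresholded summit within 1 kb, beside 41.4% of protein-coding genes. Within 500 bp of a TSS the count was 22, beside 31.4% of protein-coding genes. No test was made of the list, and the same shares stand beside the group counts below. Head-to-head neighbours are not given for these genes, so their summits cannot be assigned to the listed gene rather than to a neighbour. Nlp and Nph are neighbours that share 1 summit, so their counts are not independent.

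Of 6 genes for H3.3 deposition 4 had a thresholded summit. They were Daxx at rank 1871, XNP (the ATRX homologue) at 1944, yem, the partner of Hira, at 3931 and asf1, an H3-H4 chaperone, at 6846. Hira itself, the core of the H3.3 chaperone complex, and Dek had their best pooled ranks at 8915 and 9963. Of 11 genes for H2Av exchange 10 had one, led by pont at rank 179, Gas41 at 1041 and dom, the ATPase of the exchange complex, at 2987. Within 500 bp of a TSS the count was 9, as the Ing3 summit lay past the gene's end, 2620 bp from its TSS. The pont summit, 152 bp upstream of a gene for an AAA ATPase, ranked 192, 172, 152 and 246 in replicates 1 to 4, above every variant gene. Nipped-A, a large scaffold subunit, had no pooled summit, and among the replicates only replicate 1 had one, at rank 8272.

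Of 5 genes listed in the centromeric group 3 had a thresholded summit. They were Nlp at rank 4478, cal1, the loading factor of the cid protein, at 6343 and Lhr at 6459. Genes were placed in this group by name, and a role of each in loading cid was not checked. Cenp-C had no summit in any list. Hmr had no pooled summit, but its best summits in replicates 1, 2 and 3 ranked 8693, 10009 and 11764. The cal1 summit lay 77 bp upstream and ranked 7276, 7122, 4999 and 7771 in replicates 1 to 4, so all placed it among their 7842 highest, which held for cid in 1 replicate. Of 8 general chaperone genes 5 had one, led by dre4, the large subunit of FACT, at rank 2270, Nph at 4478 and Caf1-55 at 4855. Within 500 bp of a TSS 3 of the 8 had one. Ssrp, the other subunit of FACT, had its best pooled rank at 9932.

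Of 9 genes for the histone locus body and for processing replication-dependent histone mRNA, 3 had a thresholded summit. All 3 also had one within 500 bp of a TSS. Slbp, whose protein binds the stem-loop of those mRNAs, had 2 thresholded summits. The stronger, at rank 2536, lay past its end and 1372 bp from its start. Clamp, whose protein binds GA repeats in the array, had one at rank 2722, and the best summits within 1 kb of the gene ranked 2396, 10346, 1945 and 4202 in replicates 1 to 4. mxc, the scaffold of the body, had one at rank 3680, 135 bp upstream, and ranked 3715, 5294, 3795 and 3130. The best pooled ranks of Lsm11, snRNA:U7, abo and Lsm10 were 11903 to 17368, and mute and FLASH had no pooled summit. At mute only replicate 1 had a summit, at rank 9804. At FLASH the best summits of replicates 2, 3 and 4 ranked 11229, 27607 and 11492. BigH1, the embryonic linker histone variant, had its best pooled summit at rank 14849, 308 bp upstream. Replicate 1 had no summit within 1 kb of BigH1, and the upstream summits of replicates 2, 3 and 4 ranked 8631, 19004 and 18892.

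**Figure D4:**
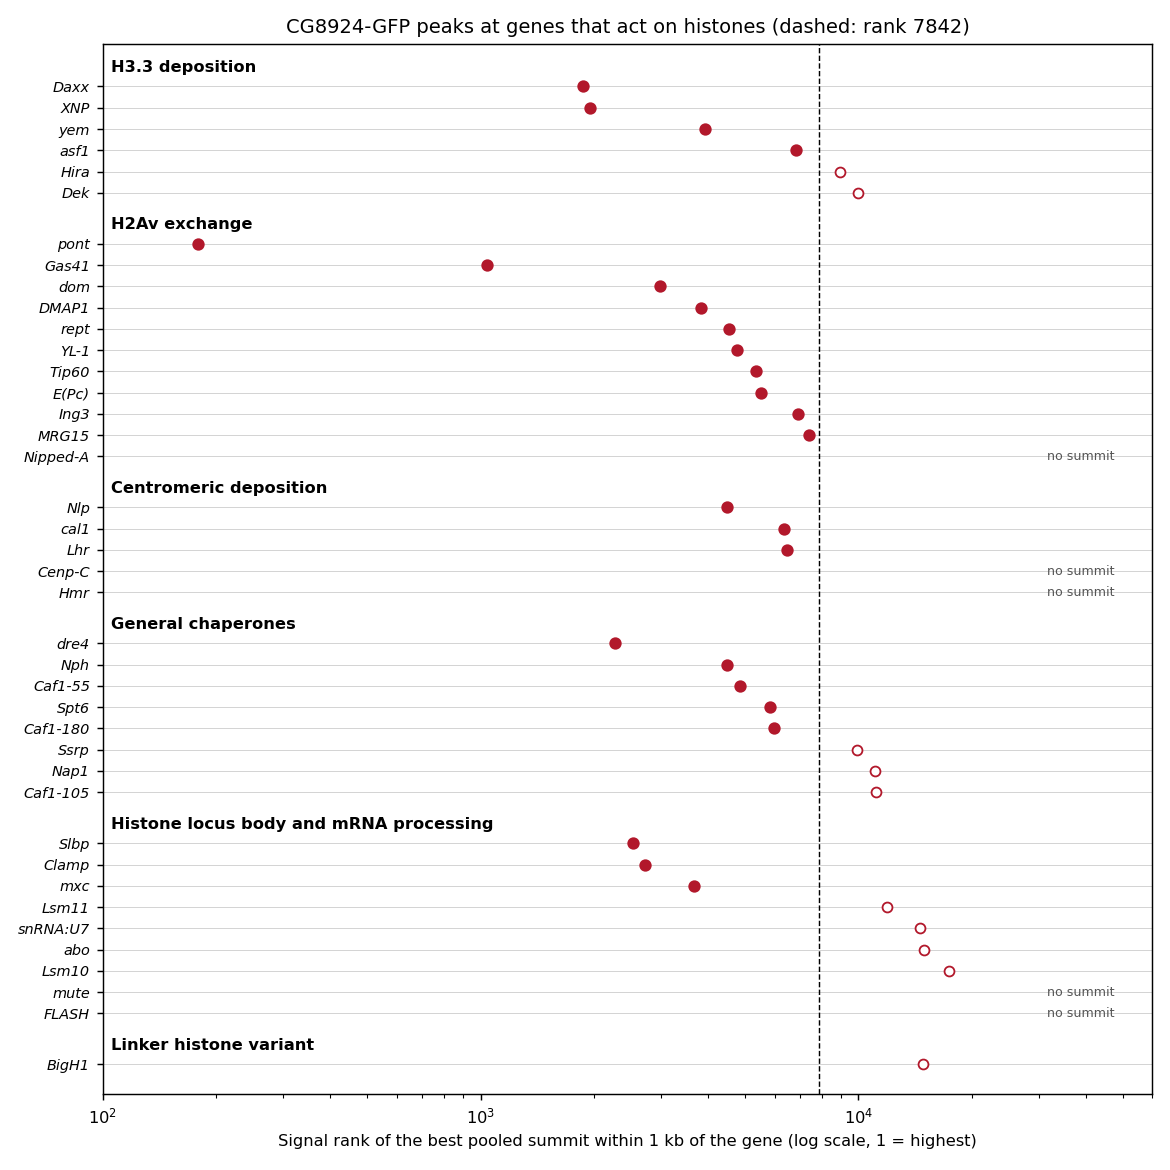
Signal rank of the best pooled summit within 1 kb of each of 40 genes that act on histones, on a log scale, by group. Filled points rank 7842 or better and so are in the thresholded list, open points rank lower, and genes with no pooled summit are marked; pont stands highest at rank 179, and 10 of 11 genes for H2Av exchange are filled.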

How the data were processed

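The deposited lists are narrowPeak files on dm6, per the labels and the deposited notes: 1 list per replicate, 1 pooled list from replicates 2, 3 and 4, and 1 thresholded list made from the lists of those replicates and the pooled list. All were called against the same control file, per the deposited notes. Peak caller, aligner and read length: not given in the sources used here. The depth is unknown from peak lists, so no counting interval is given. The authors' signal value was used to rank peaks within a list, and the deposited −log10 q-value was read as such; the p-value column holds no values. Summits are the peak start plus the deposited offset, counted from 1.

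Genes came from Ensembl's BDGP6 annotation, and sequence from the RefSeq Release 6 assembly. No peak ended beyond its arm, and Ensembl and RefSeq gave all 5 members the same coordinates. A gene counted if a summit lay within 1 kb of it. A pooled summit was matched to a replicate's best summit within 250 bp. Python 3.11.15, NumPy 2.4.6, pandas 2.3.3 and matplotlib 3.10.9 were used, and the window counts were tested on simulated data. No p-value was computed. All members were named, with neighbouring genes, the 3 genes likest in rank to each member with a thresholded peak and up to 3 genes (or all of a small group) of the list that acts on histones, in some groups with further members chosen after their values were seen. No promoter or protein table was used, so the planned protein sequences and promoter motif search are not shown. Replicate numbers come from the labels. Members, motifs and lists were chosen with earlier results of these data known. Alternatives tried were the window, the list, the ranking column and each replicate left out.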

Additional observations from a re-analysis of the deposited data

Results flagged for a closer look

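In replicate 1 the best His3.3B summit lay 668 bp from the gene's 5′ end, while those of replicates 2, 3 and 4 lay at 768, 768 and 787 bp. The gap from 668 to the next value is 0.84 of the whole range, which set replicate 1 apart from the other 3. Replicates 2, 3 and 4 each had a further, lower-ranked summit in the same intron, at 565, 558 and 588 bp. The 668 bp of replicate 1 thus lies between the 2 summits of each, and its own next summit lay at 452 bp. Of 10 groups of 4 values examined this way 1 stood out. Chance gives about 1 in 20 for each group, so with 10 examined 1 such case can arise by chance. The pooled summit, at 660 bp, was made without replicate 1 and lies nearest to it.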

How the results depend on the processing

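Of 77 recomputed values, 73 stayed within 1.5 times the count or within 1 SD of the mean rank. This tally does not measure stability, because some values could not cross these limits. A mean of 4 ranks cannot shift by 1 SD when 1 replicate is left out. A window of 0.5 kb around a TSS gave 4 members, beside 31.4% of protein-coding genes. Windows of 0.5 kb and 2 kb around the gene also gave 4 members each, but no share of all genes is given for these widths. The 3921 thresholded peaks of highest signal gave 2 members, His2Av and His3.3B, and 10 of the 40 genes that act on histones, against 25, beside 26.5% of protein-coding genes for the same peaks. Thresholded peaks supported by 3 of the replicates, leaving each of the 4 out in turn, numbered 5378 to 5583 of 7842 and gave 4 members each time and 17 to 19 of the 40, beside 32% to 32.3% of protein-coding genes. The replication-dependent genes were at 0 under all 13 alternatives run for them. No other count was possible, since the nearest summit in any list lay 15.8 kb from the array. Without 1 replicate the mean ranks were 2304 to 3191 for His2Av, 3380 to 4899 for His3.3A, 2047 to 2541 for His3.3B, 3483 to 4537 for His4r and 8911 to 10724 for cid. Ranked by the q-value column, the means of His2Av, His3.3A, His3.3B and His4r all became 4226, because ties at the highest q-value share 1 mean rank. That column therefore gives these members no order among themselves, and cid was at 7763. The share of all genes with a thresholded summit, 36.6%, was 41.4% among protein-coding genes and 30.1% among genes with 1 TSS. The number of replicates and the unknown depth limit what ranks can show. No paired analysis was possible because there is 1 group.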
